A study of Mus musculus with 8 samples.

Results

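The transcripts of 9 nonsense-mediated decay (NMD) factors (*Upf1*, *Upf2*, *Upf3a*, *Upf3b*, *Smg1*, *Smg5*, *Smg6*, *Smg8*, and *Smg9*) were followed through an RNA immunoprecipitation (RIP) of the translation initiation factor eIF4A2 in mouse embryonic stem cells (ESCs). They were taken from the count table by gene symbol, and each symbol matched 1 of its 52550 genes. All 9 reached a level of at least 1 CPM (counts scaled to 1000000 reads on genes) in all 4 inputs and were tested among 10754 transcripts.

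The ESCs lacked endogenous eIF4A2 (*Eif4a2* KO) and either carried an empty vector (EV), and so contained no Flag-tagged protein, or re-expressed the full-length isoform with a Flag tag (eIF4A2FL). Input RNA and RNA recovered with an antibody against Flag were sequenced from each, which gave 4 groups of 2 libraries: input EV, input eIF4A2FL, RIP EV, and RIP eIF4A2FL. All cells were grown in medium with the 2i inhibitors (1.5 µM CHIR99021 and 0.5 µM PD0325901) and 10 ng/ml LIF, and immunoprecipitations took 3 h with 5 µg of antibody. The rescue came from transposon vectors in clonal KO cells, and the study used 2 clones as replicates. No source used here says what distinguishes the EV replicates, so p-values measure only the spread between these libraries. A sample-type label of RIP eIF4A2FL replicate 2 names a related protein, Eif4a3, whereas its title and other labels name Eif4a2. RIP EV shows which RNA the antibody and beads recover without a tagged protein, and the inputs show the level in the cell.

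NMD degrades mRNAs on which a ribosome stops early, and it also tunes many normal mRNAs. UPF1 is an RNA helicase that is phosphorylated by the kinase SMG1, which SMG8 and SMG9 bind and regulate. UPF2 and the paralogs UPF3A and UPF3B link UPF1 to the exon junction complex left on spliced mRNA. SMG6 cuts the target RNA, and SMG5 leads it to decapping and deadenylation. The transcripts of many NMD factors are themselves NMD targets. eIF4A2 is a paralog of the eIF4A1 helicase of the cap-binding complex.

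Reads on genes came to between 2044853 and 11206420 per library. They were 19.9% and 29.9% of all reads in RIP EV, 68.2% and 68.1% in RIP eIF4A2FL, and 30.0% to 46.4% in the inputs. Reads on no annotated feature were 45.8% and 29.7% in RIP EV and 3.30% and 4.13% in RIP eIF4A2FL. CPM and fold changes below are per read on genes, so they do not compare amounts per read in all. Before any result, RIP EV stood apart: its libraries held counts for 6086 and 8200 of the 10754 transcripts tested, against at least 10698 in each of the other 6, and its replicate spread (common biological coefficient of variation) was 171% against 23.1% to 30.1% in the other groups. Tests that rest on RIP EV were therefore repeated without each of its libraries. The group then held 1 library, which was assumed to vary like the others. Far more of all transcripts passed, so the shares called are given beside these repeats. A call that held in them was not tested against the spread of RIP EV. Reads on *Eif4a2* lay at 53.8 and 94.2 CPM in input EV and at 86.8 and 69.1 CPM in input eIF4A2FL, but tags near the 3′ end do not show whether the coding sequence was disrupted or replaced, so they do not check the labels. The 7 ESC markers fixed for this check summed to between 1779 and 2391 CPM in the inputs with none at 0 in all of them, whereas 4 primitive endoderm markers summed to at most 1.08 CPM, 4 fibroblast markers to at most 6.87 CPM, and 3 markers of differentiating epiblast to at most 9.96 CPM.

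In the inputs, the bridging factors were the most abundant members. *Upf3b* averaged 151 ± 51.4 CPM (SD, n = 4), *Upf2* 111 ± 36.5, and *Upf3a* 88.3 ± 18.6. *Smg5* (44.4 ± 10.7), *Smg9* (42.3 ± 6.07), *Smg6* (39.4 ± 9.91), and *Upf1* (34.0 ± 10.1) followed, then *Smg8* (19.1 ± 7.75) and *Smg1* (7.71 ± 1.52). Each neighbour in this order overlapped the next across the 4 inputs except *Upf3a* over *Smg5* and *Smg8* over *Smg1*. The library kit reads 1 tag near the 3′ end of each polyadenylated transcript, so these levels are not divided by length.

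Re-expression of Flag-eIF4A2FL went with no called change in the NMD factors' own levels. No member passed the test between input eIF4A2FL and input EV in edgeR, nor did any of the 10754 transcripts (0% higher and 0% lower), of which 75 and 59 had an unadjusted p under 0.05 in the higher and lower directions. DESeq2 also called no member. Log2 fold changes of the members lay between -0.66 for *Smg8* and 0.07 for *Upf2*. By CPM, *Smg1*, *Smg5*, and *Smg8* were lower in both eIF4A2FL inputs than in both EV inputs, as were 17.3% of all transcripts, and no member was higher in both, as 19.8% were. The log2 fold changes of these 3 were -0.41 ± 1.42, -0.48 ± 0.56, and -0.66 ± 0.80 SE in the fit of 8 libraries and -0.43 ± 0.48, -0.50 ± 0.33, and -0.67 ± 0.41 in that of the 4 inputs (adjusted p from 0.75 to 0.87 in edgeR on the 4). In such bulk RNA, fewer cells with a transcript and less of it per cell cannot be told apart.

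**Figure D1:**
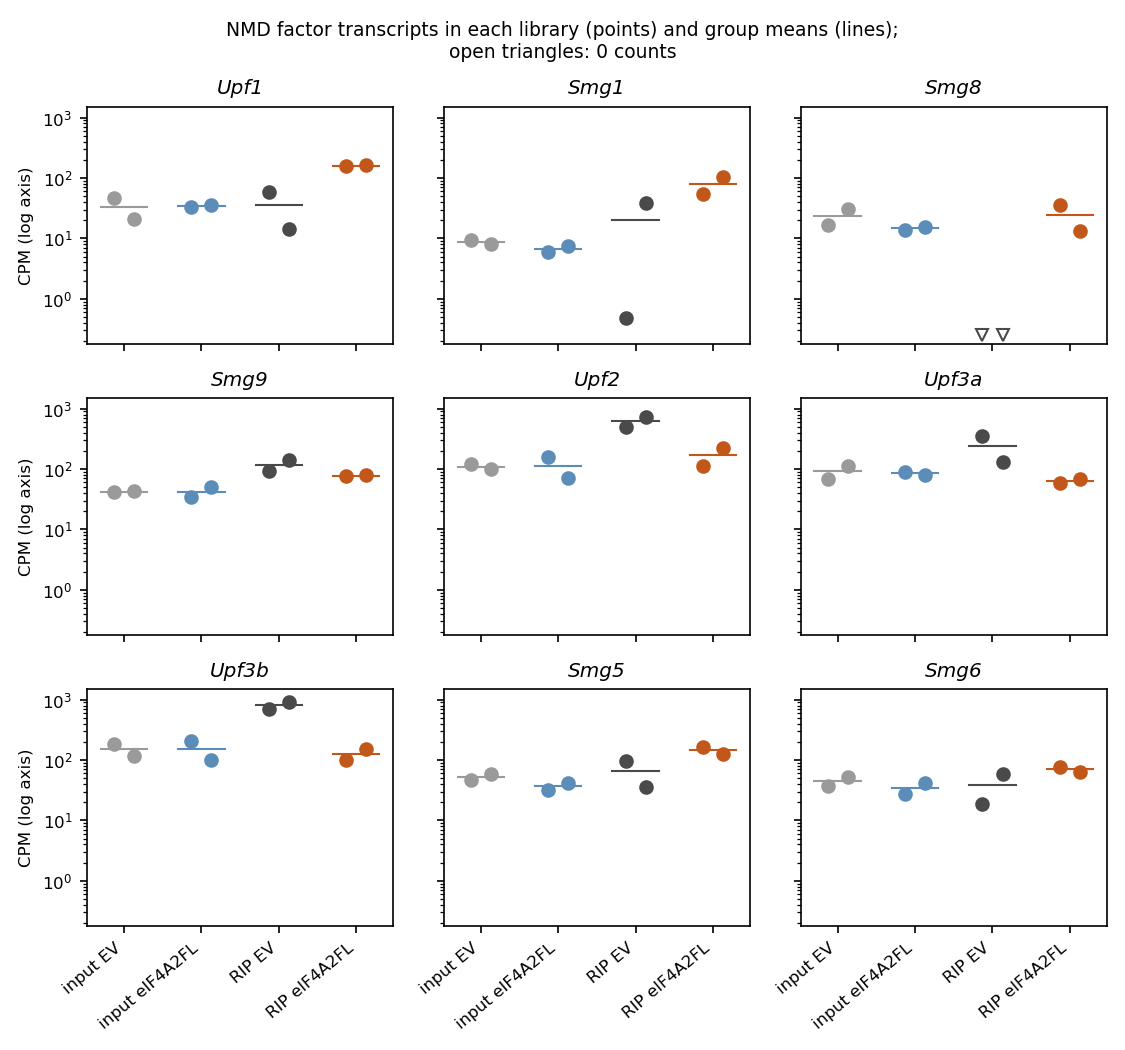
CPM of each NMD factor transcript (log axis) in the 2 libraries of each group, with the group mean as a line and open triangles for 0 counts. *Upf1* and *Smg1* are highest in RIP eIF4A2FL, *Upf2* and *Upf3b* are highest in RIP EV, and *Smg8* has no count in RIP EV.

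The transcripts of UPF1 and its kinase SMG1 stood high in RIP eIF4A2FL. *Upf1* (chromosome 8, 70331525 to 70353278, GRCm38, minus strand) was at 33.5 and 35.2 CPM in input eIF4A2FL and at 158 and 161 CPM in RIP eIF4A2FL. In the control, input EV gave 45.9 and 21.2 CPM and RIP EV 57.7 and 14.3 CPM. Both RIP eIF4A2FL libraries thus lay above all the others, and RIP EV replicates fell on either side of the inputs. RIP over input in eIF4A2FL cells was 3.76-fold (log2 1.91 ± 0.77 SE), at rank 144 of the 10754 transcripts.

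*Smg1* (chromosome 7, 118131308 to 118243670, minus strand) had the highest RIP over input of all 10754 transcripts in eIF4A2FL cells. It was at 5.84 and 7.39 CPM in input eIF4A2FL and at 55.0 and 104 CPM in RIP eIF4A2FL, a 9.79-fold difference (log2 3.29 ± 1.53 SE) on 27 and 46 reads in the inputs and 616 and 1040 in the RIPs. *Fancm*, the next in rank, also had 3.29. In input EV *Smg1* was at 9.49 and 8.11 CPM, whereas RIP EV gave 0.489 and 39.2 CPM (1 and 131 reads), so the control RIP libraries lay on opposite sides of their inputs. Over RIP EV the log2 difference of *Smg1* was 1.75 ± 1.44 (edgeR adjusted p = 0.44). It came to 0.78 (adjusted p = 0.16) without RIP EV replicate 1 and to 7.11 (adjusted p = 1.94e-05) without replicate 2, so its size against the control was set by which control library was read.

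*Smg5*, which encodes the adaptor for decay of phosphorylated UPF1 targets (chromosome 3, 88336260 to 88362338, plus strand), was the other high member. It was at 32.5 and 41.3 CPM in input eIF4A2FL and at 166 and 124 CPM in RIP eIF4A2FL. Without the tagged protein, input EV gave 45.9 and 58.0 CPM and RIP EV 96.3 and 36.2 CPM. Both RIP eIF4A2FL libraries were above all the others. RIP over input was 3.19-fold (log2 1.67 ± 0.57 SE), at rank 270.

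Whether these differences passed the test depended on which libraries were in the fit. In the edgeR fit of all 8 libraries no member passed for RIP eIF4A2FL against its input (adjusted p = 0.53 for *Upf1*, 0.62 for *Smg1*, and 0.46 for *Smg5*), and of all transcripts 0% were called higher and 0.0558% lower. Of the members, 2 had an unadjusted p under 0.05 on the higher side, as did 331 of all transcripts. In edgeR fitted to the 4 libraries compared, 3 of 9 members rose where 8.44% of all transcripts did, and none fell where 8.46% did. Adjusted p was 0.0021 for *Smg1*, 0.0036 for *Upf1*, and 0.0067 for *Smg5*. Shares over all transcripts were not computed for DESeq2. The same 3 rose with DESeq2 on those 4 libraries, and in the edgeR fit without either RIP EV library (adjusted p from 0.00048 to 0.0061; 7.25% of all transcripts higher and 7.86% lower without replicate 1, 8.07% and 7.23% without replicate 2), and in no other alternative, over which adjusted p reached 1.00. By CPM, 5 members (*Upf1*, *Smg1*, *Smg5*, *Smg6*, and *Smg9*) were higher in both RIP eIF4A2FL libraries than in both of their inputs, against 45.8% of all transcripts, and 1 (*Upf3a*) was lower in both, against 18.7%. The median log2 fold change of the 9 members was 0.56, against 0.02 over all transcripts. When libraries were scaled by size alone, these medians were 0.86 and 0.32.

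The other members of the kinase complex passed no test of RIP eIF4A2FL against its input. *Smg9* (chromosome 7, 24399619 to 24422778, plus strand) was at 35.1 and 49.8 CPM in input eIF4A2FL and at 75.4 and 78.4 CPM in RIP eIF4A2FL, with a log2 difference of 0.56 ± 0.41 (edgeR adjusted p = 0.89). In the control, input EV gave 41.1 and 43.1 CPM and RIP EV 93.4 and 138.7 CPM. Per read on genes, it was thus above the inputs in both RIPs, and highest in the RIP without a Flag-tagged protein. Its counts were 191 and 464 of 10254945 and 11202777 reads in RIP EV. In RIP eIF4A2FL they were 845 and 782 of 16443470 and 14649812, so the order of the RIPs turned per read in all.

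*Smg8* (chromosome 11, 87077732 to 87086774, minus strand) had no read in either RIP EV library. Input EV gave 16.6 and 30.6 CPM, input eIF4A2FL 13.6 and 15.6 CPM, and RIP eIF4A2FL 35.4 and 13.0 CPM. A count of 0 in both RIP EV libraries allows up to 0.557 CPM (a floor of 3 counts over both), so RIP eIF4A2FL was at least 43.5-fold higher than RIP EV, and RIP EV at least 42.4-fold lower than input EV. The floor covers counting error only. From RIP EV replicate 1 alone the limits were 16.5-fold and 16.1-fold, and from replicate 2 alone 27.0-fold and 26.3-fold. With the floor of both, the limit over RIP EV was 63.6-fold from RIP eIF4A2FL replicate 1 alone and 23.4-fold from replicate 2 alone. Both differences passed in edgeR (adjusted p = 0.0071 and 0.0082). Of all transcripts tested, 18.2% had 0 counts in both RIP EV libraries. Against its own input, RIP eIF4A2FL overlapped for *Smg8* (log2 0.42 ± 0.80, adjusted p = 1.00).

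The transcripts of the bridging factors went the other way: per read on genes, they were highest in the RIP from EV cells. *Upf2* (chromosome 2, 5951469 to 6056703, plus strand) stood at 119 and 99.6 CPM in input EV, against 495 and 731 CPM in RIP EV. In eIF4A2FL cells it was at 157 and 69.7 CPM in the input and at 114 and 226 CPM in the RIP. Per read on genes, both RIP EV libraries were above all the others, and the eIF4A2FL input and RIP overlapped. Counts of *Upf2* were 1013 and 2444 of 10254945 and 11202777 reads in RIP EV. In RIP eIF4A2FL they were 1282 and 2259 of 16443470 and 14649812, so the RIP libraries overlapped per read in all.

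*Upf3b* (chromosome X, 37091678 to 37110322, minus strand) followed the same order, at 182 and 117 CPM in input EV against 693 and 921 CPM in RIP EV. It was at 206 and 98.6 CPM in input eIF4A2FL and at 100.3 and 151 CPM in RIP eIF4A2FL. *Upf3a* (chromosome 8, 13785615 to 13799193, plus strand), whose product is the weaker paralog of UPF3B in NMD, stood at 69.2 and 113 CPM in input EV, against 358 and 129 CPM in RIP EV. In eIF4A2FL cells it had 90.7 and 80.5 CPM in the input and 59.4 and 67.9 CPM in the RIP. Per read on genes, RIP EV was the highest group for both paralogs, with its libraries 2.77-fold apart for *Upf3a* and 1.33-fold apart for *Upf3b*. Per read in all, the RIP EV libraries (732 and 433 counts of *Upf3a*) lay on either side of RIP eIF4A2FL (666 and 677).

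Against RIP EV, these 3 members fell in RIP eIF4A2FL in the edgeR fit of 8 libraries, and only *Smg8* rose. That fit shares an estimate of the spread over the groups, and the spread was widest in RIP EV (171% against 23.1% to 30.1%). Adjusted p against RIP EV may thus be too small. The log2 fold change was -2.95 ± 0.51 SE for *Upf3b* (7.75-fold lower), -2.23 ± 0.56 for *Upf3a* (4.69-fold lower), and -2.11 ± 0.55 for *Upf2* (4.33-fold lower), and their edgeR adjusted p were 0.0073, 0.024, and 0.027. So 3 of 9 members were lower where 5.46% of all transcripts were, and 1 of 9 was higher where 24.8% were. By CPM, both RIP eIF4A2FL libraries lay below both RIP EV libraries for 4 members (*Upf2*, *Upf3a*, *Upf3b*, and *Smg9*; 12.1% of all transcripts) and above them for the other 5 (51.9%). *Upf1*, *Smg5*, *Smg6*, and *Smg9* had log2 values of 1.85 ± 0.78, 0.84 ± 0.56, 0.61 ± 0.64, and -0.87 ± 0.42, with adjusted p of 0.13, 0.34, 0.56, and 0.18. Of these 4, *Upf1* passed without RIP EV replicate 1 (3.22, edgeR adjusted p = 0.00034) and without replicate 2 (1.27, 0.027). *Smg5* passed without replicate 1 only (1.75, adjusted p = 0.0021, against 0.40 and 0.34 without replicate 2), as did *Smg9* (-1.10, 0.014, against -0.47 and 0.24). *Smg6* passed without replicate 2 only (1.73, adjusted p = 0.0033, against 0.03 and 0.95 without replicate 1). Of all transcripts, 41.5% were then called higher and 18.2% lower without replicate 1, and 58.1% and 16.2% without replicate 2.

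The falls of *Upf2*, *Upf3a*, and *Upf3b* kept their direction without either RIP EV library. Their log2 values then went from -1.27 (*Upf3a* without replicate 1) to -3.12 (*Upf3b* without replicate 1). With 1 library left, the spread of RIP EV could not be estimated. In edgeR on the 4 RIP libraries alone, no transcript passed at all (0% in each direction). At an unadjusted p under 0.05, 2578 were higher and 571 lower. Adjusted p there was 0.065 for *Upf3b*, 0.078 for *Upf2*, 0.11 for *Upf3a*, and 0.074 for *Smg8*. DESeq2 on the same libraries called all 4 members, and its share over all transcripts was not computed. Without RIP eIF4A2FL replicate 1, none of the 3 falls passed (adjusted p from 0.055 to 0.18). The call of *Upf2* was also lost without either input EV library (adjusted p = 0.058), and that of *Upf3a* without input EV replicate 2, either input eIF4A2FL library, or RIP eIF4A2FL replicate 2 (adjusted p from 0.050 to 0.13), while their log2 values stayed at -2.11 and -2.23. *Smg8* kept its call without any 1 library.

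In EV cells, RIP over input was high for several members. *Upf2* rose 5.51-fold (log2 2.46 ± 0.55, edgeR adjusted p = 0.017), *Upf3b* 5.26-fold (2.40 ± 0.50, adjusted p = 0.013), and *Smg9* 2.73-fold (1.45 ± 0.42, adjusted p = 0.042), which made 3 of 9 members against 4.5% of all transcripts. *Smg8* was the 1 member that fell, where 26.3% of all transcripts did. *Upf3a* had a log2 fold change of 1.44 ± 0.54 (adjusted p = 0.096). The median of the members was 1.13, against -0.64 over all transcripts. The calls of *Upf2*, *Upf3b*, and *Smg9* held without either RIP EV library, where 17.7% of all transcripts were called higher and 42.3% lower (without replicate 1) or 16.6% and 60.3% (without replicate 2). Other members then passed with 1 control library and not the other: *Upf1* at -1.32 (adjusted p = 0.037) without replicate 1, and *Upf3a*, *Smg5*, and *Smg6* at 1.95, 0.85, and -1.29 (0.00035, 0.044, and 0.017) without replicate 2. *Smg1* passed in opposite directions, at 2.08 (adjusted p = 0.0021) without replicate 1 and at -4.19 (0.0025) without replicate 2. None of them held without input EV replicate 2 (adjusted p from 0.090 to 0.19), nor did any in edgeR on the 4 EV libraries (adjusted p = 0.072, 0.072, and 0.20; 0% of all transcripts were called in each direction, whereas unadjusted p lay under 0.05 for 460 higher and 2715 lower ones). Without input EV replicate 1, *Upf2* was lost as well (0.080), and *Smg9* was lost without any 1 library outside RIP EV (0.072 to 0.19). By CPM, 4 members (*Upf2*, *Upf3a*, *Upf3b*, and *Smg9*) had both RIP EV libraries above both of their inputs, against 14.6% of all transcripts, and *Smg8* had both below, against 44.9%.

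**Figure D2:**
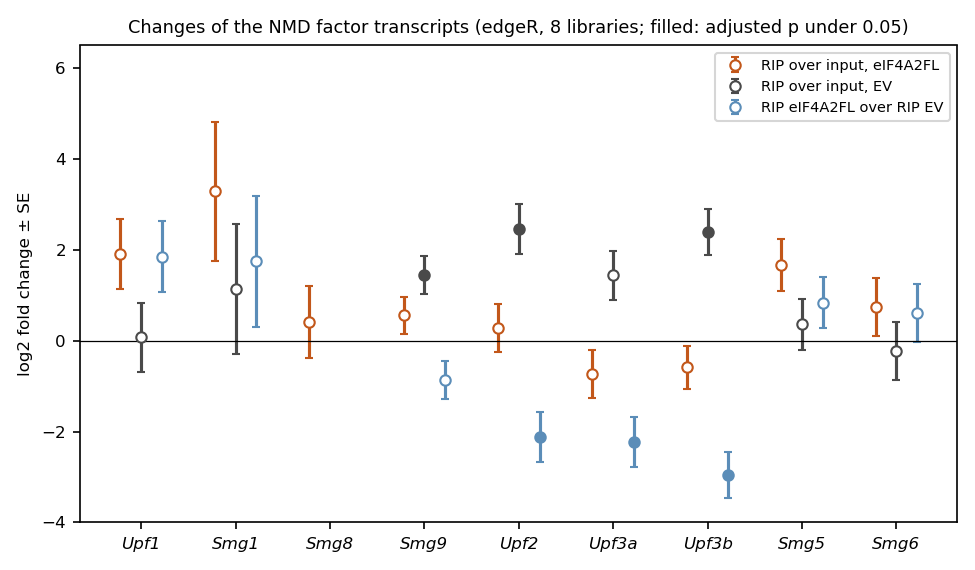
Log2 fold change ± SE of each NMD factor transcript for RIP over input in eIF4A2FL cells, RIP over input in EV cells, and RIP eIF4A2FL over RIP EV (edgeR on 8 libraries); filled points passed at an adjusted p under 0.05. *Upf2*, *Upf3a*, and *Upf3b* lie above 0 in EV cells and at -2.11 or lower between the RIPs, and *Smg8* is drawn only against its own input in eIF4A2FL cells because it had 0 counts in RIP EV.

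The difference between the cell lines in RIP over input was tested directly. It passed for *Upf3b* (log2 -2.98 ± 0.69, edgeR adjusted p = 0.026), which was 1 of 9 members against 2.1% of all transcripts lower, and for *Smg8* (adjusted p = 0.018), 1 of 9 against 19.2% higher. *Upf2* and *Upf3a* had -2.18 ± 0.75 and -2.17 ± 0.76 (adjusted p = 0.096 and 0.10). *Upf1*, *Smg1*, and *Smg5* had 1.84 ± 1.07, 2.16 ± 2.02, and 1.31 ± 0.79 (adjusted p = 0.34, 0.59, and 0.35), so a larger RIP over input with Flag-eIF4A2FL than with EV was not shown for them with both RIP EV libraries in the fit. The calls of *Upf3b* and *Smg8* held without either RIP EV library, and *Upf2* (adjusted p = 0.0097 and 0.026) and *Upf3a* (0.047 and 0.00037) passed there too. That of *Upf3b* was lost without any 1 other library (adjusted p from 0.054 to 0.11), and that of *Smg8* without any 1 other but input EV replicate 2 (0.051 to 0.074). The difference passed for *Upf1* and *Smg5* without RIP EV replicate 1 (adjusted p = 0.0016 and 0.0028) and for *Smg1* and *Smg6* without replicate 2 (5.36e-05 and 0.0046). Of all transcripts, 35.9% were called higher and 11.8% lower without replicate 1, and 54% and 12.4% without replicate 2.

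The makeup of the members' reads differed between groups. Together the 9 took 439 to 602 CPM in the 4 inputs, 1813 and 2067 in RIP EV, and 841 and 990 in RIP eIF4A2FL. *Upf2*, *Upf3a*, and *Upf3b* made up 56.7% to 75.4% of the members' reads in the inputs. Their share was 85.3% and 86.1% in RIP EV and 32.6% and 45.0% in RIP eIF4A2FL, and the 3 ranges did not overlap. Their levels summed to 249 to 454 CPM in the inputs, against 1546 and 1781 for RIP EV and 274 and 445 for RIP eIF4A2FL. So in RIP eIF4A2FL their level was inside the range of the inputs, and their lower share went with higher levels of other members. These 3 were put together for their role at the exon junction complex after their values were seen, and no test was made of the share.

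**Figure D3:**
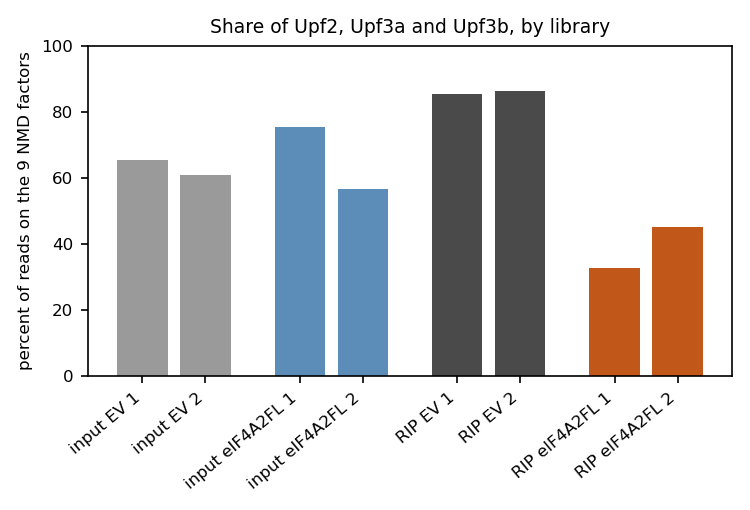
Percent of the reads on the 9 NMD factor transcripts that fell on *Upf2*, *Upf3a*, or *Upf3b*, with 1 bar per library. The bars stand at 56.7% to 75.4% in the inputs, at 85.3% and 86.1% in RIP EV, and at 32.6% and 45.0% in RIP eIF4A2FL.

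The nuclease transcript *Smg6* (chromosome 11, 74925823 to 75164448, plus strand) was higher in both RIP eIF4A2FL libraries than in any other, without passing in the edgeR fit of 8 libraries. Input eIF4A2FL gave 27.5 and 41.1 CPM and RIP eIF4A2FL 76.7 and 64.0 CPM. In the control, input EV gave 37.6 and 51.5 CPM and RIP EV 18.6 and 58.0 CPM, on either side of the inputs. RIP over input was log2 0.73 ± 0.64 (edgeR adjusted p = 0.94, and 0.10 on 4 libraries). *Srr*, on the other strand within its span, was at most 3.46 CPM in the inputs and RIP eIF4A2FL and at 0 and 30.5 CPM in RIP EV, and its part in the *Smg6* counts was not tested. *Cers1* and *Gdf1*, on the other strand at *Upf1*, reached at most 1.10 CPM in any library. *Gm45084*, on the same strand at *Smg1*, reached at most 0.161 CPM, and *Gm9378*, a pseudogene on the other strand at *Smg8*, at most 0.803 CPM.

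The members differed in transcript length. The longest annotated coding transcripts of *Smg1*, *Smg6*, and *Upf2* have 15557, 5848, and 5174 bases, those of *Upf1* and *Smg5* 4618 and 4448, that of *Smg8* 3218, and those of *Upf3b*, *Smg9*, and *Upf3a* 2344, 2242, and 2057. *Smg1* ranked 29 in length among 10087 protein-coding transcripts. Across these, RIP over input in eIF4A2FL cells had a rank correlation of 0.31 with length (Spearman; transcripts from the same 4 libraries, not independent replicates). Its median went from -0.18 in the shortest quintile (up to 1802 bases) to 0.51 in the longest (from 5152 bases). *Smg1*, *Smg6*, and *Upf2*, all in the longest quintile, were at 3.29, 0.73, and 0.28. In EV cells the correlation with length was 0.11. *Smg1*, *Smg5*, and *Smg6* each have 1 annotated isoform of the NMD class, and the other 6 members have 0. The part of length in these results was not tested.

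**Figure D4:**
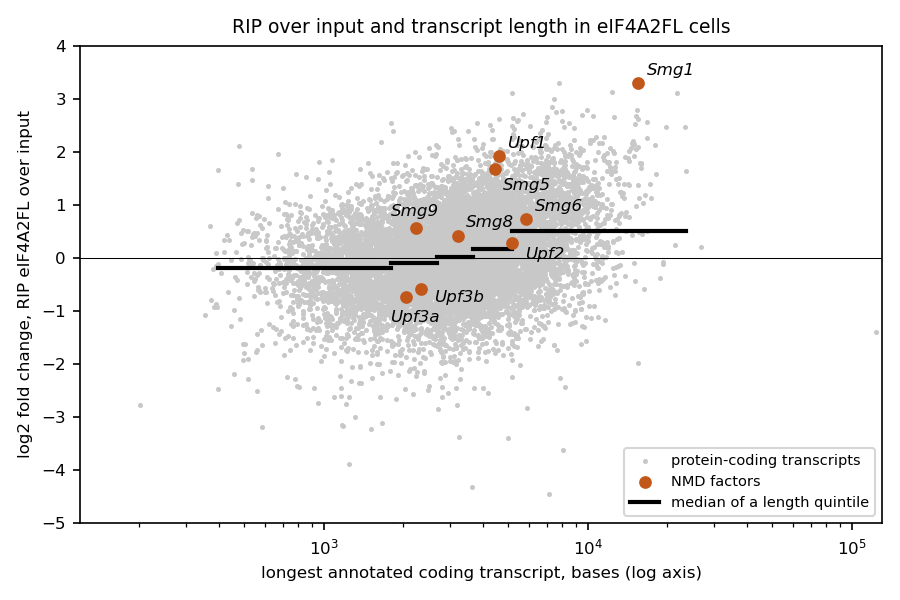
Log2 fold change of RIP over input in eIF4A2FL cells against the longest annotated coding transcript (bases, log axis) for protein-coding transcripts (grey), with the NMD factors named and the median of each length quintile as black bars; 10 transcripts lie outside the plotted range of fold changes. *Smg1* is at the top at 15557 bases and 3.29, and *Upf3a* and *Upf3b* lie below 0.

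The rest of the pathway was counted from fixed lists of 17 other genes, all of them tested. In RIP eIF4A2FL against its input, 0 rose and 0 fell in edgeR on 8 libraries, where 0% and 0.0558% of all transcripts did, and 2 rose and 1 fell on 4 libraries, where 8.44% and 8.46% did. The median log2 fold change was -0.03. Against RIP EV, 4 rose and 1 fell, near the 24.8% and 5.46% of all transcripts, with a median of -0.07 against 0.64 over all transcripts. Without RIP EV replicate 1 the median was 0.78, against 0.67 over all transcripts. Without replicate 2 it was -0.24, against 3.07. In edgeR on the 4 RIP libraries none passed, where 0% of all transcripts did in each direction.

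Of the 6 exon junction complex genes, 2 rose against RIP EV and 0 fell (24.8% and 5.46% of all transcripts). Both calls held without any 1 library. *Magoh*, a core subunit, had 122 and 140 CPM in RIP EV against 768 and 379 CPM in RIP eIF4A2FL (log2 1.84 ± 0.36, edgeR adjusted p = 0.0095), but both RIPs were below their inputs, which held 1078 to 1309 CPM. Against its own input its log2 fold change was -1.38 ± 0.35 (adjusted p = 0.29, and 0.026 on 4 libraries), the lowest of the list. *Rnps1*, a peripheral factor, had the highest (0.70 ± 0.91). It had no read in RIP EV, against 12.6 and 25.0 CPM in RIP eIF4A2FL, which was at least 33.7-fold higher against the floor (adjusted p = 0.011), or at least 12.8-fold with the floor of RIP EV replicate 1 alone.

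Of the 3 release factors, which end translation at stop codons and meet UPF1 there, 1 rose and 1 fell against RIP EV. The other passed in neither direction, and 24.8% and 5.46% of all transcripts rose and fell. *Gspt1* (eRF3a) had 125 and 112 CPM in input eIF4A2FL, 354 and 311 CPM in its RIP, and 92.4 and 90.3 CPM in RIP EV. It rose against RIP EV (log2 1.58 ± 0.43, edgeR adjusted p = 0.032) and, on 4 libraries, against input (1.17 ± 0.27, adjusted p = 0.018). *Etf1* (eRF1) had 479 and 442 CPM in input eIF4A2FL, 362 and 315 CPM in its RIP, and 726 and 484 CPM in RIP EV. Per read on genes, it fell against RIP EV (log2 -1.13 ± 0.31, edgeR adjusted p = 0.033). Its counts were 1484 and 1620 of 10254945 and 11202777 reads in RIP EV. In RIP eIF4A2FL they were 4054 and 3142 of 16443470 and 14649812, so the order of the RIPs turned per read in all. The call of *Etf1* was lost without any 1 library but RIP EV replicate 2 (adjusted p from 0.052 to 0.23; -0.77 without RIP EV replicate 1). That of *Gspt1* held without either RIP EV or input EV library and was lost without any 1 of the eIF4A2FL libraries (0.065 to 0.12).

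Of the 4 decay effectors, 1 rose against RIP EV: the decapping enzyme transcript *Dcp2*, at 24.9 and 40.9 CPM in RIP EV against 141 and 121 CPM in RIP eIF4A2FL (log2 1.71 ± 0.42, edgeR adjusted p = 0.023). This is 1 of 4 where 24.8% of all transcripts rose, and the call held without either RIP EV library and was lost without any 1 other (adjusted p from 0.051 to 0.11). Over input, *Dcp1a* had the highest value of that list (0.51 ± 1.15) and *Pnrc2* the lowest (-0.82 ± 0.76). Of the 4 cofactors of UPF1 and SMG1, none passed on 8 libraries. *Nbas* was at 5.19 and 6.26 CPM in input eIF4A2FL and at 17.7 and 17.8 CPM in RIP eIF4A2FL, and it passed on the 4 libraries (1.32 ± 0.36, adjusted p = 0.036). *Ruvbl1* had the lowest value of the cofactors (0.28 ± 1.67).

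Of 7 known NMD target transcripts, none passed against input on 8 or on 4 libraries, with values from -0.96 for *Ddit3* to 0.48 for *Gadd45a*. Against RIP EV 2 rose and 2 fell, where 24.8% and 5.46% of all transcripts did. *Gas5*, a spliced noncoding RNA that NMD degrades, had the lowest adjusted p of them. Its CPM were 482 and 712 in input EV, 1481 and 3345 in RIP EV, 660 and 667 in input eIF4A2FL, and 701 and 592 in RIP eIF4A2FL, and it fell against RIP EV (log2 -2.17 ± 0.40, edgeR adjusted p = 0.0084). Per read on genes, its highest group was RIP EV, as for *Upf2* and *Upf3b*. Per read in all, the RIP EV libraries (3028 and 11191 counts of *Gas5*) lay on either side of RIP eIF4A2FL (7859 and 5905). The others were *Gadd45a*, and *Hnrnpl* and *Tbl2*, which were named after their values were seen. *Gadd45a*, a stress-response gene, rose from 0 and 3 reads in RIP EV to 160 and 56 in RIP eIF4A2FL (adjusted p = 0.044). *Hnrnpl*, which encodes an RNA-binding splicing factor, rose from 231 and 406 CPM to 2549 and 1081 CPM (2.23 ± 0.56, adjusted p = 0.025). *Tbl2* fell from 177 and 113 CPM to 39.3 and 52.6 CPM (-1.94 ± 0.44, edgeR adjusted p = 0.017). Per read in all, its RIP libraries overlapped (362 and 378 counts in RIP EV, 440 and 525 in RIP eIF4A2FL). All 4 calls held without either RIP EV library, and none but that of *Hnrnpl*, without replicate 2, held when 1 RIP eIF4A2FL library was left out (adjusted p from 0.056 to 0.17 for the calls lost). Those of *Gadd45a* and *Hnrnpl* were also lost without either input EV library, and that of *Gadd45a* without either input eIF4A2FL library (0.057 to 0.096).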

How the data were processed

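The authors made QuantSeq 3′ libraries. After trimming (bbduk), reads were mapped to mm10 by STAR (version 2.5.3a), and HTSeq (version 0.11.2) counted them per gene. The deposited values are raw counts, 1 column per library. Neither an annotation release nor a strand setting is named in the sources at hand, so overlapping genes may share reads. The 5 summary lines (31.8% to 80.1% of reads in a library) stayed out of totals. Of 52550 gene identifiers, 52403 matched GENCODE vM21 (GRCm38), which gave names, positions, and lengths (of the longest protein-coding transcript).

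The test took transcripts that reached 1 CPM in each of the 4 inputs. A single edgeR model (version 4.0.16, R 4.3.3, TMM factors, quasi-likelihood tests) was fitted to all 8 libraries. The groups thus shared an estimate of the spread, so p-values of comparisons that rest on RIP EV may be too small. Benjamini-Hochberg adjustment ran over 10754 transcripts with a threshold of 0.05. The model was run on simulated data for RIP eIF4A2FL against its input only, and the outcome is not given here. SE is the fold change over the root of the F statistic. Each comparison was also fitted on its 4 libraries. Alternatives were DESeq2 (version 1.42.0), other size factors and filters, the replicate number as a block, and leaving out each library. RIP eIF4A2FL against RIP EV and the comparisons with input share libraries. The members, gene lists, and tests were chosen with earlier results of these data known. All members were named, and by the rule at most 3 genes of each list. These were the highest and lowest over input in eIF4A2FL cells and any past the threshold (of the known targets, that with the lowest adjusted p). Of the known targets, the other genes past the threshold against RIP EV were named beyond this rule. The 5 transcripts most like the members by Pearson r over the 8 libraries were also named. A gene of the lists is not reported here and was left out of their counts.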

Additional observations from a re-analysis of the deposited data

Results flagged for a closer look

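For 6 of the 33 members and list genes (3 higher and 3 lower, where 19.2% and 2.1% of all transcripts were), RIP over input differed between eIF4A2FL and EV cells by the test of the difference itself (edgeR on 8 libraries). The log2 difference was -2.98 for *Upf3b* (adjusted p = 0.026). For *Smg8* and *Rnps1*, with 0 counts in RIP EV, the fitted values of 10.67 and 9.76 depend on the prior count and are no bound (adjusted p = 0.018 and 0.025). *Magoh* had 1.80 (adjusted p = 0.044), and the stress-response target *Ddit3* and *Gas5* had -3.21 and -2.35 (adjusted p = 0.034 and 0.027). All 6 rest on RIP EV, the group with the widest spread. Without either RIP EV library all 6 passed (adjusted p up to 0.024, with 35.9% and 54% of all transcripts called higher and 11.8% and 12.4% lower). The calls of *Magoh*, *Rnps1*, *Ddit3*, and *Gas5* were lost without any 1 other library (adjusted p from 0.056 to 0.16).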

How the results depend on the processing

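Counts of called NMD factors moved as follows. In edgeR on the 4 libraries compared, the number against RIP EV went from 1 higher and 3 lower to 0 and 0, that of RIP EV against input from 3 and 1 to 0 and 0, and that of RIP eIF4A2FL higher than input from 0 to 3, as with DESeq2 on those 4. DESeq2 on 8 libraries called 3 lower, in place of 1, for the difference between cell lines, 4 lower against RIP EV, and 4 higher for RIP EV against input. The last was 2 with no filter, with filterByExpr, with the replicate block, and with DESeq2 on 4 libraries. Shares over all transcripts were not computed for DESeq2, these filters, or the block, so these counts have no background. The labels do not say whether replicate numbers pair the libraries. Deviations of same-numbered libraries had correlations from -0.03 to 0.13, which cannot settle whether they share a clone. With the replicate block, 1 member was lower against RIP EV and 0 for the difference.

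Leaving out each library gave 1 to 4 members higher and 0 to 4 lower against RIP EV, 0 to 3 higher and 0 lower for RIP eIF4A2FL against input, 0 to 5 higher and 1 to 3 lower for RIP EV against input, 0 and 0 between the inputs, and 0 to 3 in each direction for the difference. Each of the highest counts above 0 came without 1 of the RIP EV libraries. There the shares of all transcripts called, given above with each comparison, were also larger than without any other library. The counts thus moved with the background, and their rise is not specific to the NMD factors. Where a group was left with 1 library, that library was assumed to vary like the others. Log2 fold changes turned sign in these ranges. For RIP eIF4A2FL over input they were -0.27 to 1.02 for *Upf2*, -1.04 to 0.076 for *Upf3b*, and -0.41 to 1.00 for *Smg8*. For RIP EV over input they were -1.32 to 0.84 for *Upf1*, -4.19 to 2.08 for *Smg1*, -0.56 to 0.85 for *Smg5*, and -1.29 to 0.35 for *Smg6*. Between the inputs they were -0.48 to 0.78 for *Upf1*, -0.67 to 0.55 for *Upf2*, -0.31 to 0.25 for *Upf3a*, -0.63 to 0.48 for *Upf3b*, and -0.23 to 0.23 for *Smg9*. None of these values was called in the fit of all 8 libraries. *Upf1* in RIP EV over input also turned to -0.088 with no filter, -0.0040 with filterByExpr, and -0.012 with the block, and between the inputs to -0.014 in edgeR and -0.0086 in DESeq2 on 4 libraries, and *Smg9* between the inputs to -0.0026 with the block. The cause was not tested. For the 9 members, no value against RIP EV or of the difference between cell lines turned sign in any alternative. All alternatives were scaled on reads on genes, so they cannot show a dependence on the share of reads on genes. Over all 702 values of members under alternatives, 599 kept direction and side of the threshold. CPM on all reads in the table moved 29 of 36 group levels by more than 1 SD, and CPM on TMM library sizes 6.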

Other observations

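Over the 8 libraries, the transcripts most like the mean of the NMD factors, by Pearson r of log2(CPM + 1), were *Rbm10* (0.97), *Uspl1* (0.97), *Topbp1* (0.97), *Ube2o* (0.97), and *Taf1* (0.96). The members themselves had r from -0.28 (*Upf3a*) to 0.81 (*Smg1*) with that mean, so it describes none of them closely. With pseudocounts of 0.1 and 5, only *Taf1* and only *Topbp1*, respectively, stayed among the 5 highest, and with Spearman's rho none did.

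Among the members, *Upf2* and *Upf3b* were most alike over the 8 libraries (r = 0.94), then *Smg1* and *Smg6* (0.91) and *Upf1* and *Smg5* (0.86). *Smg8* ran against *Upf3b* (-0.97) and *Upf2* (-0.91). These are descriptions over 4 groups of 2 libraries that share depth and recovery. *Smg8* had no count in RIP EV, and the part of this in the last 2 values was not tested.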
